A study of Sus scrofa with 8 samples.

Results

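The genes described here encode the proteasome, its assembly chaperones and its activators and inhibitor. They were taken as every probe set of the Affymetrix Porcine Genome array whose single gene symbol was PSMA, PSMB, PSMC, PSMD, PSME, PSMF or PSMG followed by a number. The rule found 46 probe sets for 40 genes, among the 24123 probe sets of the array, and used no measured value. Of these, 42 probe sets (36 genes) belonged to the standard proteasome, its chaperones and its general regulators, and 4 belonged to its immune form (PSMB8, PSMB10, PSME1 and PSME2). Of 48 genes of the family that were listed, 8 had no probe set under a single symbol: PSMA8, PSMB9, PSMB11, PSMC4, PSMD7, PSMD9, PSMG2 and PSMG4.

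The proteasome is the large protease that degrades ubiquitin-tagged proteins in every cell. Its barrel, the core particle, is built of alpha rings, which gate the entrance, and beta rings, which hold the proteolytic sites. A cap, the regulatory particle, has a base with ATPases that unfold the substrate and a lid that removes ubiquitin. Interferon and immune signals exchange the catalytic subunits PSMB5, PSMB6 and PSMB7 for PSMB8, PSMB9 and PSMB10, and induce the activator formed by PSME1 and PSME2, which shifts the peptides cut for presentation on MHC class I. Spermatozoa carry proteasomes of their own, which take part in capacitation and in their passage through the zona pellucida.

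RNA came from the oviducts of 4 weaned crossbred sows (Landrace × Large White). In each sow, 1 oviduct received X-spermatozoa and the contralateral one Y-spermatozoa, flow-sorted from the semen of several boars and pooled, after the uterine horns had been closed with staples. Cells were scraped from the oviducts 24 h later, and each of the 8 samples was hybridised to 1 array. The arrays are called X1 to X4 and Y1 to Y4, and the number is the replicate number, taken as that of the sow. All oviducts therefore held stained and sorted spermatozoa, and no oviduct without spermatozoa was analysed, so that the values compare the sperm types and say nothing of the response to spermatozoa as such. The sorting enriches each type without making it pure. The samples were mixtures of cells, in which fewer cells of a type and less RNA per cell cannot be told apart.

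The arrays were of like brightness, with a median signal of 38.7 to 41.2 in the deposited linear units. The level above which a probe set was taken to be detected, the 95th percentile of 64 reporter probe sets without a pig target, was 8.4 to 12.5 by array. Of the 46 proteasome probe sets, 45 exceeded it on all 8 arrays. The exception was 1 of the 3 probe sets of PSMD11, which exceeded it on 6 arrays with a mean signal of 13.7. The tissue was checked by its markers. All 6 measured epithelial markers (EPCAM, KRT8, KRT18, KRT19, CDH1 and OVGP1) were above background. Their summed level was 14606 to 15829 with X-spermatozoa and 15228 to 16448 with Y-spermatozoa. Of the ciliated cell markers 1 of 6, TEKT1, had a probe set, and it was detected on every array. Among leukocyte markers, 3 of the 10 measured had a mean below background. Their summed level was 200 to 208 with X-spermatozoa and 210 to 285 with Y-spermatozoa. The ranges did not overlap but nearly met, at 208.0 on X3 and 209.5 on Y3. The markers did not go 1 way, since 7 differences were above 0 and 3 below. In the sum of Y2, CD163 had its highest signal, 71.9. Of the 4 sperm markers measured, PRM1 and ODF1 were below background on all 8 arrays. PRM2 exceeded it on 6 arrays, with mean signals of 15.2 with X-spermatozoa and 11.6 with Y-spermatozoa. TNP2 exceeded it on 7, with 14.85 and 15.25.

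No proteasome probe set passed the test between oviducts with Y- and X-spermatozoa. With limma over 23999 probe sets, 0 of the 46 had an unadjusted p under 0.05, where 3.56% of all probe sets had one (1.62% higher and 1.94% lower with Y-spermatozoa). With the sow as a block the count was again 0, against 5.09% of all probe sets. Without the block, the smallest adjusted p of the 46 was 1, so that it is not repeated for each gene below. With the block it was 0.895. No probe set of the array passed after adjustment in either fit. In none of the 46 did the arrays of the groups separate without overlap, as they did in 2.07% of all probe sets. For single genes, an exact permutation test over the 70 ways to label the arrays is given, two-sided and without the pairing by sow, whose smallest possible p is 0.0286. The SEs and confidence intervals are likewise from the limma fit without the sow, unless the block is named. They therefore include the spread between sows.

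The design bounded these differences closely. The 95% confidence interval of the Y over X ratio lay within 2-fold in either direction for 45 of the 46 probe sets, and within 1.5-fold for 38. The proteasome probe sets were brighter and steadier than most of the array. The median within-group SD of the standard subunits was 0.17 on the log2 scale at a median signal of 268, against 0.32 at a median signal of 40.4 for all probe sets. The immune subunits had a median SD of 0.34 at a median signal of 166. A p that misses the threshold does not show that the oviducts were alike, and the intervals leave room for changes of the size that they span.

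The direction leaned to Y-spermatozoa without any single gene reaching the threshold. The median log2 difference, Y minus X, was 0.04 for the 42 standard probe sets and 0.06 for the 4 immune ones, beside 0.00 for all probe sets. Of the standard probe sets, 28 were above 0 (66.7%), and of all probe sets 50.7%. Centring each array on its median gave 34 above 0, against 53.8% of all, and the deposited scaling gave 29, against 46.7%. This lean rested on single arrays, since the count was 39 without Y1 but 20 without Y2 and 20 without Y4, and 21 without X1. Without both arrays of sow 1, left out after the data had been seen, it was 33 and the median difference was 0.08.

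**Figure D1:**
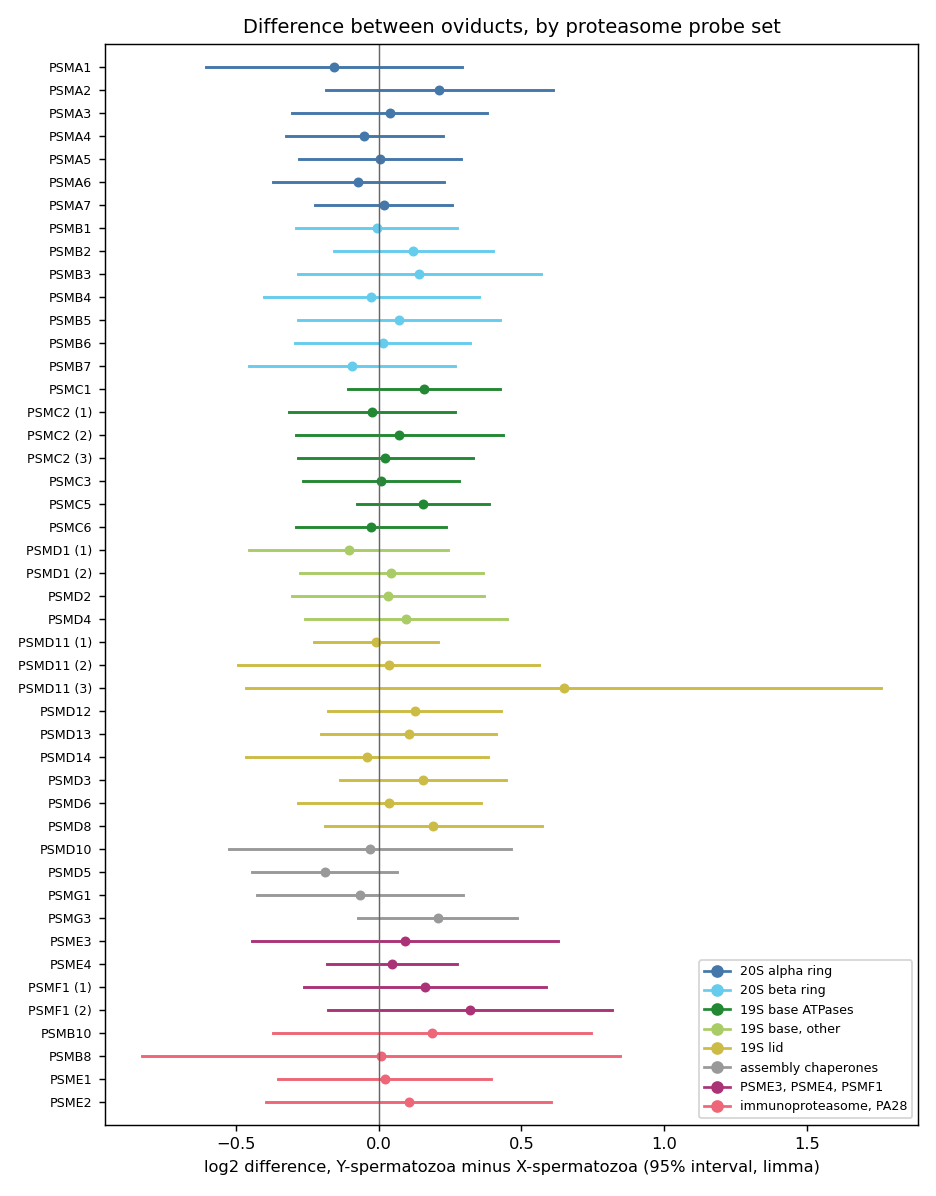
Log2 difference between oviducts with Y-spermatozoa and X-spermatozoa for each of the 46 proteasome probe sets, with its 95% confidence interval from limma (4 arrays per group); colours give the role, and numbers in brackets tell probe sets of the same gene apart. The intervals are from the fit without the sow as a block. Every interval includes 0, and the widest belongs to the dim probe set of PSMD11, marked (3).

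Among the subunits of the alpha ring, which gate the core, 4 of 7 differences were above 0 and the median was 0.01. PSMA2 had the highest. Its signals were 803, 1131, 763 and 987 on X1 to X4, and 880, 1269, 964 and 1303 on Y1 to Y4. Its Y array was thus above the X array in each of the 4 sows, while the groups overlapped because sows 2 and 4 were higher than sows 1 and 3 with both sperm types. The log2 difference was 0.21 (SE 0.17, exact permutation p = 0.257). PSMA1 had the lowest difference, -0.16 (SE 0.19, exact permutation p = 0.543). It was 370, 379, 398 and 453 with X-spermatozoa and 252, 393, 367 and 464 with Y-spermatozoa, so that array Y1 alone was well below the others.

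The beta ring holds the proteolytic sites, and 4 of its 7 differences were above 0, with a median of 0.01. The catalytic subunits are PSMB5, which cuts after hydrophobic residues, PSMB6, which cuts after acidic ones, and PSMB7, which cuts after basic ones. PSMB5 measured 385, 465, 356 and 416 on X1 to X4, and 350, 499, 392 and 476 on Y1 to Y4. PSMB6 measured 479, 500, 499 and 571, and 422, 577, 546 and 553. PSMB7 measured 379, 389, 394 and 335, and 296, 443, 309 and 385. In all 3 genes Y1 was the lowest and Y2 the highest array, and the groups overlapped. Their log2 differences were 0.07 (PSMB5), 0.01 (PSMB6) and -0.09 (PSMB7), with SEs of 0.15, 0.13 and 0.16. PSMB3, a structural subunit, had the highest difference of the ring, 0.14 (SE 0.18, exact permutation p = 0.457). Its signals were 113, 137, 113 and 134 with X-spermatozoa and 108, 164, 118 and 165 with Y-spermatozoa, and sows 2 and 4 were the higher ones with both.

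In the base of the regulatory particle, the ATPases that unfold substrates had 5 of 7 probe sets above 0 and a median difference of 0.02. PSMC1 was the highest, at 215, 228, 192 and 210 on X1 to X4 and 220, 264, 216 and 244 on Y1 to Y4. Each Y array was above the X array of the same sow, and the groups overlapped. The log2 difference was 0.16 (SE 0.11, exact permutation p = 0.143). PSMC5 differed by the same amount, 0.16 (SE 0.10, exact permutation p = 0.0571), and was also higher with Y-spermatozoa in all 4 sows. PSMC6 was the lowest at -0.03, and its sign turned to 0.03 when arrays were centred on their median. Of the other base subunits, PSMD4, a ubiquitin receptor, had the highest difference, 0.09 (SE 0.15). PSMD1, a scaffold of the base, gave the lowest, -0.11, with 1 probe set and 0.04 with the other.

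The lid, whose subunit PSMD14 removes ubiquitin from the substrate, had 7 of 9 probe sets above 0 and a median of 0.11. Its highest value, 0.65 (SE 0.48), came from the dim probe set of PSMD11, which measured 10.4, 4.1, 17.1 and 15.2 with X-spermatozoa and 15.7, 18.4, 9.4 and 19.5 with Y-spermatozoa. The other 2 probe sets of PSMD11 were brighter and gave -0.01 and 0.04, so the gene showed no common direction. PSMD8 was next. It measured 324, 383, 367 and 367 on X1 to X4 and 304, 433, 440 and 491 on Y1 to Y4, with Y1 the lowest array of all and the other Y arrays the highest. The log2 difference was 0.19 (SE 0.16, exact permutation p = 0.314). Without Y1 it was 0.33 (SE 0.11) and passed limma's unadjusted threshold, the only call that leaving out 1 array made. PSMD14 was the lowest at -0.04 (SE 0.18).

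The assembly chaperones help to build the particle and leave it when it is finished, and 1 of their 4 differences was above 0, with a median of -0.05. PSMD5, which helps to build the base, measured 216, 220, 192 and 215 with X-spermatozoa and 169, 197, 179 and 196 with Y-spermatozoa. It was the one member lower with Y-spermatozoa in all 4 sows, and array X3 overlapped the Y arrays. The log2 difference was -0.19 (SE 0.11, exact permutation p = 0.0857). PSMG3, which helps to build the alpha ring, measured 87.7, 82.6, 94.8 and 94.5, and 91.7, 111.5, 94.3 and 114.1. Its difference was 0.21 (SE 0.12, exact permutation p = 0.143), with Y2 and Y4 above every X array and Y1 and Y3 among them. PSMG1, the partner of an alpha ring chaperone without a probe set here, and PSMD10 had -0.06 and -0.03.

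The regulators outside the cap are the activators PSME3 and PSME4 and the inhibitor PSMF1, and all 4 of their probe sets were above 0, with a median of 0.13. PSMF1 had the highest. Its brighter probe set measured 93.4, 70.8, 85.5 and 63.0 on X1 to X4 and 101.4, 66.5, 97.2 and 81.7 on Y1 to Y4. The dimmer one measured 51.4, 42, 47.6 and 29.0, and 54.8, 39.1, 61.2 and 51.0. In both, sows 1 and 3 were above sow 2 with either sperm type, which is the reverse of PSMA2 and PSMB3. The differences were 0.16 (SE 0.18) and 0.32 (SE 0.21, exact permutation p = 0.200), and PSMF1 was the one gene of 4 with several probe sets in which all had the same sign. PSME4 was the lowest of the group at 0.05 (SE 0.10).

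The sows can be read as 4 separate comparisons. On the normalized scale, higher values with Y-spermatozoa in all 4 sows were found in 7 of the 46 probe sets (15.2%), where 6.44% of all probe sets had them, and lower values in all 4 in 1 (2.17%), against 6.71%. The 7 were PSMA2, PSMB2, PSMC1, PSMC5, PSMD3, PSMD12 and PSMG3. The deposited signal of PSMG3 in sow 3 was slightly lower with Y-spermatozoa, at 94.3 against 94.8. The 7 share the same 8 arrays, and so are not separate observations. The sows themselves went different ways. In sow 4, 36 of the 42 standard probe sets were higher with Y-spermatozoa, with a median difference of 0.16, and in sow 2, 33 were, with 0.09. In sow 3 the number was 20 and the median -0.02, and in sow 1 it was 16 and the median -0.08. Of all probe sets, 48.8%, 48.8%, 50.3% and 48.5% were higher with Y-spermatozoa in sows 1 to 4.

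What the standard subunits shared was a common level on each array. Taking each probe set's deviation from its own mean over the 8 arrays, the median was -0.21 on Y1, with 7 of 42 probe sets above their mean, and -0.09 on X1, with 11. It was 0.15 on both Y2 and Y4, with 37 of 42 on each. On X2 it was 0.05 with 28, on X4 0.00 with 21, on X3 -0.04 with 16, and on Y3 -0.05 with 15. On each array 50.2% to 51.6% of all probe sets were above their own mean, as the normalization sets it. Y1 was the lowest of the 8 arrays for 22 of the 42. All 7 alpha and all 7 beta subunits were below their means on Y1 and above them on Y2. With the deposited scaling the medians were -0.21 on Y1 and 0.16 and 0.15 on Y2 and Y4. The regulators had 3 of their 4 probe sets above their mean on Y1. Of 8 partner genes described below, 3 were above their mean on Y1, 7 on Y2 and 5 on Y4.

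**Figure D2:**
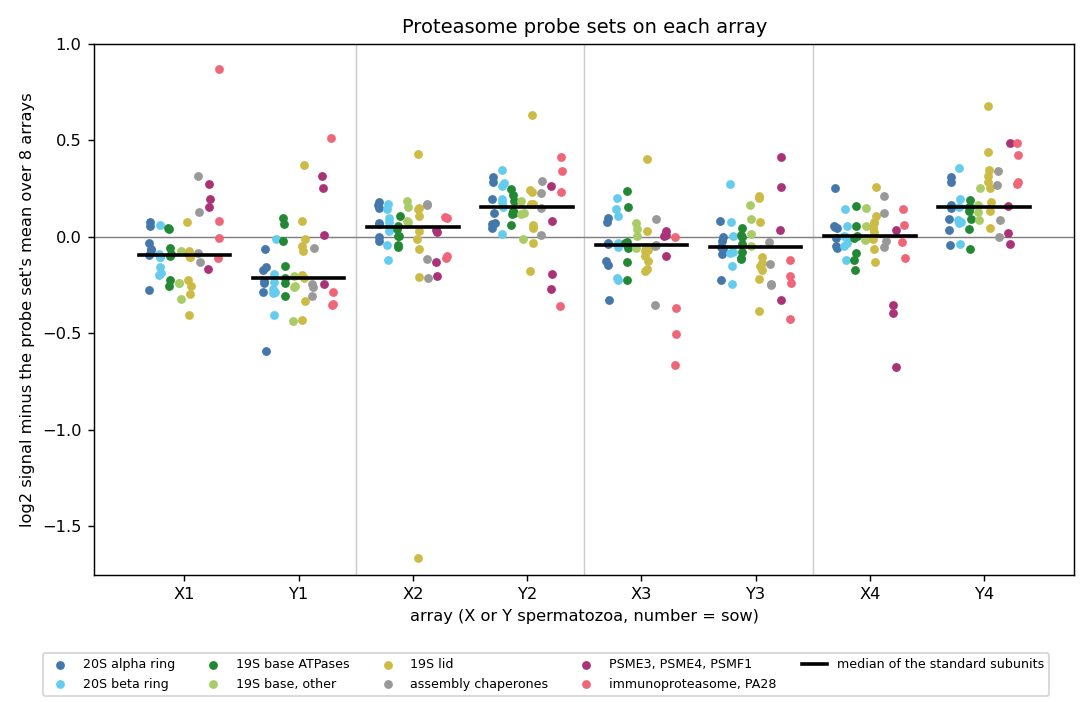
Log2 signal of each of the 46 proteasome probe sets minus its mean over the 8 arrays (vertical axis), by array in the order of the sows; colours give the role and the black bar the median of the 42 standard probe sets. The bar lies at -0.21 on Y1 and at 0.15 on Y2 and Y4, and the point far below on X2 is the dim probe set of PSMD11.

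Some other properties of the arrays moved with this common level, in part. The ratio of the 3' to the 5' signal of the GAPDH control, which rises as RNA is degraded or copied short, was 6.0 on Y1 and 4.58 on X1, the arrays with the lowest proteasome level. It was 3.91 on Y2, 3.87 on Y4 and 3.83 on X2, the arrays with the highest, and 4.13 to 4.26 on the others. The same ratio of actin was also highest on Y1, at 8.35, but did not follow the order of the other arrays, since it was 5.68 on X1 and 6.61 on both X3 and Y3. That of a further control, EF1A, was likewise highest on Y1, at 1.57. It did not follow the other arrays either, at 1.35 on X1, 1.41 on X2 and 1.47 on X3. The ciliated cell marker TEKT1 measured 408, 272, 402 and 259 on X1 to X4 and 458, 327, 494 and 288 on Y1 to Y4, so that it was high in sows 1 and 3, where the proteasome level was low. The summed level of 4 smooth muscle markers was 1672, 4498, 4693 and 2525 with X-spermatozoa and 1124, 3257, 1502 and 3639 with Y-spermatozoa. It too was lowest on Y1, but it was highest on X3, where the proteasome level was not. The summed level of 5 endothelial markers was 251, 356, 258 and 243 with X-spermatozoa and 218, 423, 288 and 349 with Y-spermatozoa. It was lowest on Y1 and highest on Y2. The part of RNA quality, of ciliated cells, of muscle and of endothelium in the proteasome level was not tested.

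**Figure D3:**
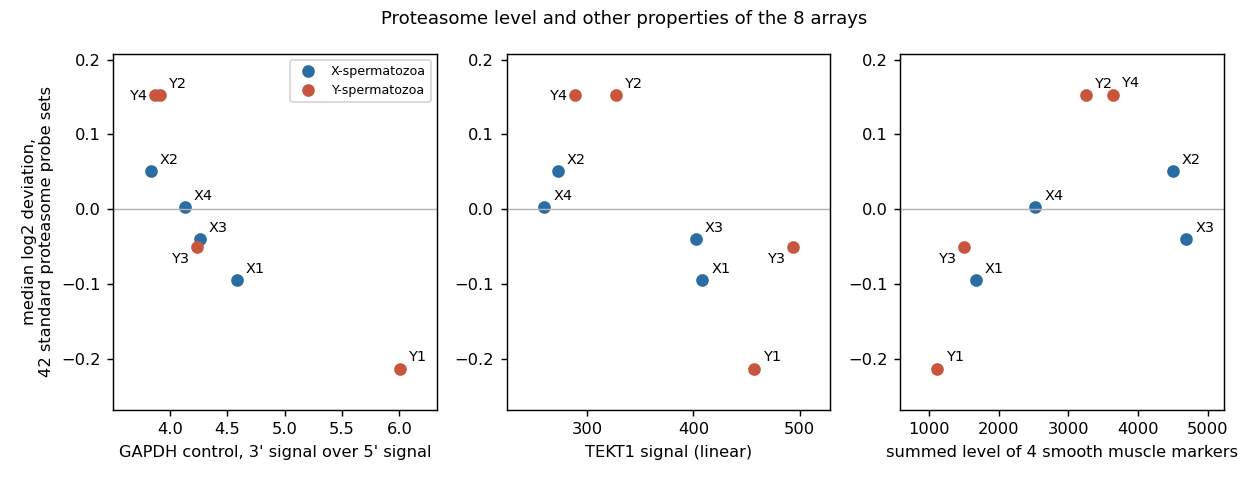
Median deviation of the 42 standard proteasome probe sets on each array (vertical axis, log2) against the 3' over 5' signal ratio of the GAPDH control, the linear signal of TEKT1 and the summed level of 4 smooth muscle markers; each point is 1 array. Y1, the lowest array at -0.21, has the highest GAPDH ratio, 6.0, and the lowest summed smooth muscle level, 1124.

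In the median, the immune probe sets moved further between arrays than the standard ones, with within-group SDs of 0.34 and 0.17. They were also dimmer, with median signals of 166 and 268. Single members crossed this order, since PSME1, at 0.22, varied less than PSMA1, at 0.28. Among the general regulators, PSME3 had an SD of 0.34 and PSME4 one of 0.08. PSMB10, the immune counterpart of PSMB7, measured 72.6, 64.6, 50.1 and 75.6 on X1 to X4 and 56.1, 90.6, 58.0 and 94.9 on Y1 to Y4. PSME1 measured 442, 505, 469 and 468, and 373, 565, 435 and 584. PSME2 measured 255, 277, 200 and 266, and 203, 327, 223 and 344. All 3 were highest on Y4 and next highest on Y2, and their Y arrays of sows 1 and 3 lay at or below the middle of the X arrays, so that the groups overlapped. The log2 differences were 0.19 (PSMB10, SE 0.24), 0.02 (PSME1, SE 0.16) and 0.11 (PSME2, SE 0.21), with exact permutation p of 0.486, 0.886 and 0.629. The summed level of the leukocyte markers was also highest on Y2, at 285, and Y4, at 247. These were the highest arrays of the standard subunits as well. On Y1 the leukocyte sum was 218, above each X array, while 1 of the 4 immune probe sets was above its mean there. The part of leukocytes in these signals was not tested. By sow, the median difference of the 4 immune probe sets was -0.35, 0.19, 0.20 and 0.35 in sows 1 to 4. PSME1 and PSME2 lie close together in the pig assembly Sscrofa11.1, with 1 protein-coding gene between them.

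PSMB8, the immune counterpart of PSMB5, had another order of arrays. It measured 117.6, 60.2, 42 and 59.2 on X1 to X4 and 91.4, 49.1, 48.1 and 77.9 on Y1 to Y4. Both oviducts of sow 1 were above all 6 of the other samples, although X1 and Y1 were the arrays with the lowest standard level. The difference between sperm types was 0.01 (SE 0.36, exact permutation p = 1), with a 95% interval of the ratio from 0.563 to 1.80, while the sow means on the log2 scale were 6.70, 5.77, 5.46 and 6.10. The log2 ratio of PSMB8 to PSMB5 within each array, minus its mean over arrays, was 0.97 on X1 and 0.75 on Y1. It was between -0.62 and 0.09 on the others. The log2 ratio of PSMB10 to PSMB7, taken in the same way, showed no such mark of sow 1, at 0.02 on X1 and 0.01 on Y1.

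Differences between sows were tested for all probe sets with a limma F-test that allows for the sperm type. PSMB8 was the one member of 46 with an unadjusted p under 0.05 (adjusted p = 0.293), where 14.2% of all probe sets had one and none passed after adjustment. By the same unadjusted threshold, the call of PSMB8 was lost without X1, without X3 and without Y3, and was kept without each of the other 5 arrays. Each of these fits left the sow concerned without a replicate. The probe sets next in order were those of PSMA2 and PSMB3 and 1 each of PSMF1, PSMD11 and PSMD1. Their adjusted limma p values were 0.366, 0.375, 0.392, 0.419 and 0.429. The other probe sets had higher adjusted limma p values, 0.572 for PSMF1 and 0.486 for PSMD1. For PSMD11 these were 0.922 with the brightest probe set and 0.799 with the dimmest. With a variance prior that follows the mean level, 15 of the 46 passed unadjusted, against 19.5% of all. The share of proteasome probe sets that differed between sows was therefore below the background in the first fit and above it in the second.

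**Figure D4:**
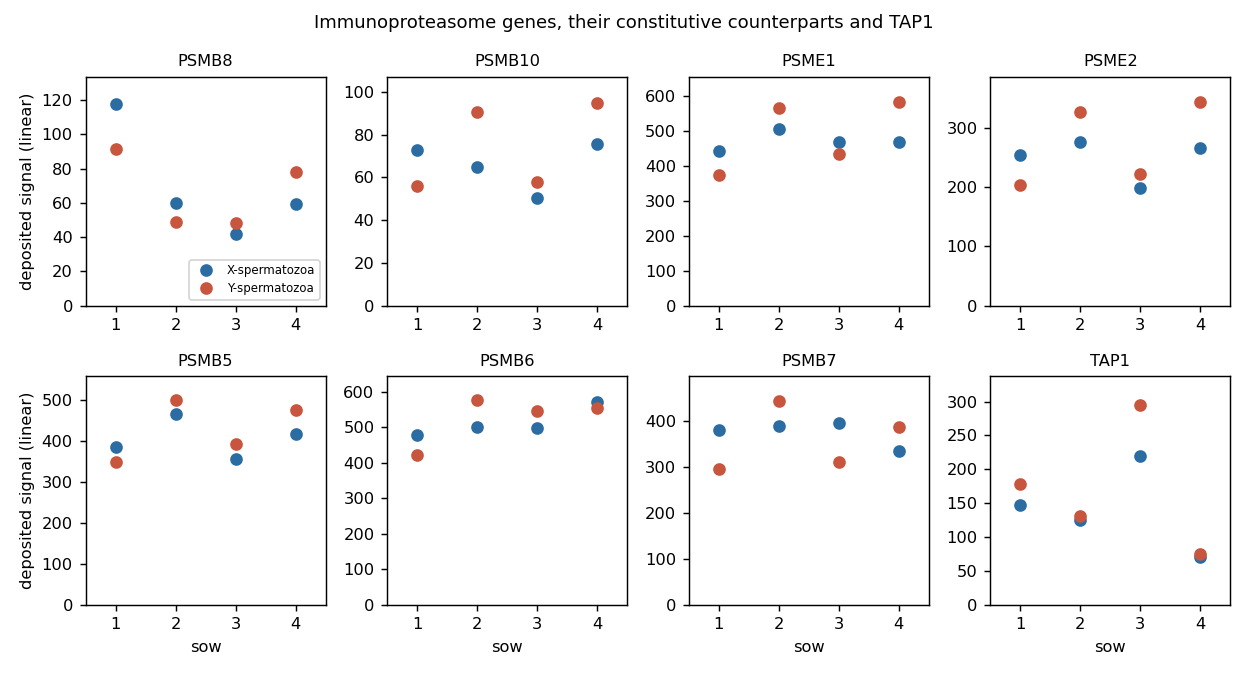
Deposited linear signal of PSMB8, PSMB10, PSME1, PSME2, their constitutive counterparts PSMB5, PSMB6 and PSMB7, and TAP1, by sow; each point is 1 array, blue with X-spermatozoa and red with Y-spermatozoa. PSMB8 is highest in sow 1 with both sperm types, at 117.6 and 91.4, whereas TAP1 is highest in sow 3 and lowest in sow 4.

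The genes around the proteasome were listed by function. TAP1, which carries the cut peptides into the endoplasmic reticulum, is the gene next to PSMB8 in Sscrofa11.1. It measured 147, 126, 220 and 70.2 on X1 to X4 and 178, 131, 295 and 75.1 on Y1 to Y4. It was highest in sow 3 and lowest in sow 4 with both sperm types, and so followed another order of sows than PSMB8. It passed between sows before adjustment (limma adjusted p = 0.151), and between sperm types its log2 difference was 0.21 (SE 0.48, exact permutation p = 0.714). Of 15 genes of antigen presentation and the interferon pathway, 10 were measured and 0 passed between sperm types in either fit. Between sows, 2 of the 10 passed before adjustment, TAP1 and PDIA3, where 14.2% of all probe sets did. PDIA3, a chaperone of MHC class I loading, had a limma adjusted p of 0.306. IFNG itself was below background on all 8 arrays. Of 29 partners of the proteasome, such as ubiquitin genes, shuttle factors and the segregase VCP, 8 were measured and 0 passed between sperm types in either fit. The smallest limma p was that of PAAF1, an assembly factor of the base, with a log2 difference of 0.18 (SE 0.14, exact permutation p = 0.171).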

How the data were processed

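RNA of 8 oviduct samples was hybridised to Affymetrix Porcine Genome arrays. Each probe set has 1 deposited value per array, a linear intensity that per the labels came from MAS5 5.1. The methods name RMA, whose values would be on a log scale. Replicate numbers were taken to mark the sow. The labels give a biological replicate number within each sperm type and name no animal. The paper's design used both oviducts of each sow. Between the arrays of a sow, deviations from group means had correlations of 0.132 to 0.187 in all 4 sows.

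Signals were quantile normalized over 24123 probe sets, floored at 1 and log2 transformed, and 124 AFFX controls were left out. Group means were compared with limma 3.58.1 in R 4.3.3 (lmFit, eBayes, two-sided, Benjamini-Hochberg over 23999 probe sets), and sows with its F-test. The threshold was an unadjusted p of 0.05, with the count after adjustment beside it. The script was tested on simulated data. Signals are printed as deposited, and differences on the normalized log2 scale. Symbols came from the platform annotation, and all 46 matched the pig gene table of Sscrofa11.1, used for names and gene order. Of several probe sets of a listed gene the brightest was used. Python 3.11.15 with matplotlib 3.10.9 made the figures.

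Genes named with values were the immune subunits and their counterparts, the highest and lowest of each role, the 6 with the smallest p between sows, members past the threshold, and the first members of the related lists; others are PSMC5, chosen after its values were seen, and genes named for a count. Members and lists were chosen with earlier results of these data known. Alternatives were the sow as a block, other scalings, a pseudocount of 16, brighter probe sets, a variance trend and leaving out arrays.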

Additional observations from a re-analysis of the deposited data

Results flagged for a closer look

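In 92 groups of 4 arrays (46 probe sets in each sperm type), 5 had a sample far from the other 3 by Dixon's test. This is near the share that chance gives, about 1 in 20, so the flags are only listed. In oviducts with Y-spermatozoa, PSMB2 measured 499 on Y3 against 404 to 416 on the others, and 1 probe set of PSMD1 measured 249 on Y1 against 317 to 324. In oviducts with X-spermatozoa, the brightest probe set of PSMD11 measured 361 on X1 against 379 to 385, PSME4 measured 99.1 on X1 against 113 to 114, and PSMD13, a subunit of the lid, measured 302 on X2 against 250 to 254. The low values all came from the arrays of sow 1, those with the highest GAPDH 3' to 5' ratios, 4.58 and 6.0. The actin ratio of X1, 5.68, was below the 6.61 of X3 and Y3, and its EF1A ratio, 1.35, was below the 1.47 of X3. The part of RNA quality in these values was not tested.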

How the results depend on the processing

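Between sperm types, 0 proteasome probe sets passed limma's unadjusted threshold of 0.05 with the sow as a block, with other scalings, the pseudocount, brighter probe sets only, the variance trend and 1 probe set per gene, and 0 to 1 did when each array was left out in turn (1, PSMD8, without Y1). Among fits added after the data had been seen, the sow block with arrays centred on their median gave 1 (PSMA2), the sow block without sow 1 gave 1 (PSMB10), and the sow block with the deposited scaling and the fit without sow 1 gave 0. The block left the median difference of the standard subunits at 0.04, and across scalings, pseudocount and filter this was 0.03 to 0.07. Leaving out each array gave -0.01 to 0.11 for the standard and -0.04 to 0.19 for the immune subunits, with the lowest in both without Y4. Between sows, 1 probe set passed at first; 2 did with median centring (13.9% of all probe sets) and 2 with the deposited scaling (14.3%), 7 with the pseudocount (20%), 8 of 44 when brighter probe sets were tested alone (29.4% of all these), of which PSMB8 also after adjustment (adjusted p = 0.0351), and 15 with the variance trend. Leaving out each array gave 0 to 3, 0 without X3 or Y3 and 3 without X1 or Y1, where 10.5% to 12.4% of all probe sets passed. The cause of these changes was not tested. With 4 sows the precision is limited by their number, and among the members the dim PSMD11 probe set was the one not above background on every array.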
